A study of Caenorhabditis elegans with 12 samples.

Results

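The arms of Caenorhabditis elegans chromosome IV were taken as the genes of the authors' gene table on chromosome IV whose midpoint lay below 5.8 Mb or above 11.7 Mb, and the stretch in between was taken as the centre. The arms held 16122 of the 46904 genes of the series, 3064 on the left arm and 13058 on the right arm, and the centre held 3582. A normalised count of at least 10 in at least 2 of 12 libraries was reached by 1500 arm genes, 755 on the left and 745 on the right, and by 1101 centre genes, out of 14640 genes tested across the genome. The members nearest to the boundaries were the piRNA gene 21ur-10510 (IV, 5756857 to 5756877) on the left arm and K01A6.12 (IV, 11710499 to 11710644) on the right arm. Just outside lay 21ur-8742 (IV, 5800360 to 5800380) and ZK792.7 (IV, 11694359 to 11696464). All positions are on WBcel235 and counted from 1.

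Late-stage embryos of 6 genotypes were profiled for messenger RNA, in 2 libraries per genotype. The mutants were hpl-2, hpl-2 I158A, lin-61, the double mutant lin-61 hpl-2 and the triple mutant met-2 set-25 set-32, and the wild type was N2. The labels name the mutated genes and the I158A substitution but no allele, and nothing in them says that the replicates of a genotype were separate cultures. The p-values therefore rest on the spread among these samples, which may be technical. Each of the 5 mutants was compared with the same pair of N2 libraries, and the comparisons are therefore not independent of each other. The question these comparisons address is how expression on chromosome arms differs when readers or writers of heterochromatin are mutated.

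HPL-2 is a worm homolog of heterochromatin protein HP1, and LIN-61 is an MBT-repeat protein. Both bind histone H3 methylated at lysine 9 (H3K9), a mark set by the MET-2 and SET-25 methyltransferases, while SET-32 is a related SET-domain protein. The arms of worm autosomes are rich in this mark and in repeats, lie near the nuclear envelope and recombine more often than the centres. The arms of chromosome IV also carry most piRNA genes of the worm, from which short RNAs are made that guide the Argonaute PRG-1 in the germ line. Mature piRNAs have no poly(A) tail, and a library of poly(A)-selected RNA is not made to capture them.

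The libraries held 1593546 to 2533102 reads in genes, except replicate 2 of the triple mutant met-2 set-25 set-32 with 10243076. One read was worth 0.222 normalised counts in that library and 0.886 to 1.56 in the others, so values of a few normalised counts rest on a few reads. That library differed most in genes that lie opposite another gene: it held 734545 reads in arm coding genes against 110274 in the other library of its genotype, but 18039 against 16759 reads in arm piRNA genes. Its 66 arm coding genes with at least 90% of their length opposite another gene had a median of 13.5 normalised counts per kb, against 36.1 to 63.8 in the other 11 libraries, while the 1473 arm coding genes with nothing opposite had 2.76, against 2.68 to 5.38. Late-embryo markers were present in every library: unc-54 of body wall muscle ranged from 1296 to 2840 normalised counts, dpy-7 of the cuticle from 524 to 855, elt-2 of the intestine from 51.9 to 89.6 and rab-3 of neurons from 10.6 to 39.8. The yolk genes vit-2 and vit-6, markers of the adult intestine, stayed at or below 1.93. The mutated gene hpl-2 had 36.2 and 34.5 normalised counts in hpl-2, 30.9 and 49.8 in lin-61 hpl-2, and 304 and 242 in N2, and met-2 had 44.3 and 77.0 in the triple mutant met-2 set-25 set-32 and 266 and 267 in N2. Counts of met-2 were also below N2 in hpl-2 I158A, at 111 and 114 (log2 fold change -1.24, limma adjusted p = 0.0287). Its log2 fold change was -0.61 for both hpl-2 and lin-61 single mutants (limma adjusted p = 0.292 and 0.476), and 0.12 for double mutants. Without replicate 2 of the triple mutant these adjusted limma p-values were 0.0155 and 0.0281. Log2 fold changes of set-25 and set-32 in triple mutants were -1.7 and -1.52 (limma adjusted p = 0.0101 and 0.238). The gene lin-61 had 7.15 and 5.45 normalised counts in lin-61 single mutants, 13.6 and 12.4 in lin-61 hpl-2 double mutants, and 91.9 and 41.4 in N2.

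The strand on which reads were counted bears on every value. The kit marks strand, but how it was set in the counting is not given in the sources used here. On the left arm the highest level per kb of any arm gene was that of the piRNA gene 21ur-15588 (IV, 2388245 to 2388265), which lies wholly opposite an exon of sec-61.B (IV, 2388195 to 2388675), the gene of a small subunit of the protein translocation channel of the endoplasmic reticulum. This short piRNA gene had 2494 and 2593 normalised counts in N2, while sec-61.B itself, on the other strand, had 274 and 288. On the right arm the highest was 21ur-12037 (IV, 14891445 to 14891465), partly opposite an exon of eps-8, with 1100 and 1396 in N2. A gene and its partner on the other strand can therefore not be separated here with certainty. Were the counts taken on the wrong strand, a gene with nothing opposite would be left with reads from stray antisense fragments, and a piRNA gene would carry the reads of the transcript across from it; whether this was so was not tested.

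Of the arm genes, 13147 (81.55%) were piRNA genes, 1936 were protein-coding, 568 belonged to the annotation's class ncRNA, 283 were pseudogenes, and 1 identifier had no match in the annotation. The rest were 61 tRNA, 33 snoRNA, 33 miRNA, 28 snRNA, 20 lincRNA and 12 antisense RNA genes. The filter left a different mixture: 997 coding genes, 285 piRNA genes, 153 ncRNA genes and 48 pseudogenes passed, with 4 tRNA, 4 snoRNA, 3 miRNA, 5 antisense RNA and 1 lincRNA gene and no snRNA gene. A coding gene passed in 51.5% of cases on the arms, 55.4% on the left and 47.2% on the right, against 59.6% in the centre. A piRNA gene passed in 2.17% of cases on the arms and 6.83% in the centre, although 3503 arm piRNA genes had a read in some library.

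The piRNA genes lay in blocks, and the measured share of coding genes was lowest in parts of them. From 5 to 8 Mb to the right of the middle of the chromosome each Mb held 3318 to 3417 piRNA genes, and from 4 to 2 Mb to the left of it 1383 and 1319. The Mb with 1319 lies mostly beyond the left boundary, in the centre. The share of coding genes that passed was 40.0%, 37.9% and 27.7% in the successive Mb of the right block and 38.6% and 50.9% in those of the left one. From 8 to 9 Mb to the right, with 1083 piRNA genes, the share was 53.5%. It was highest, 71.1%, from 7 to 6 Mb to the left of the middle, where there were 5 piRNA genes.

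**Figure D1:**
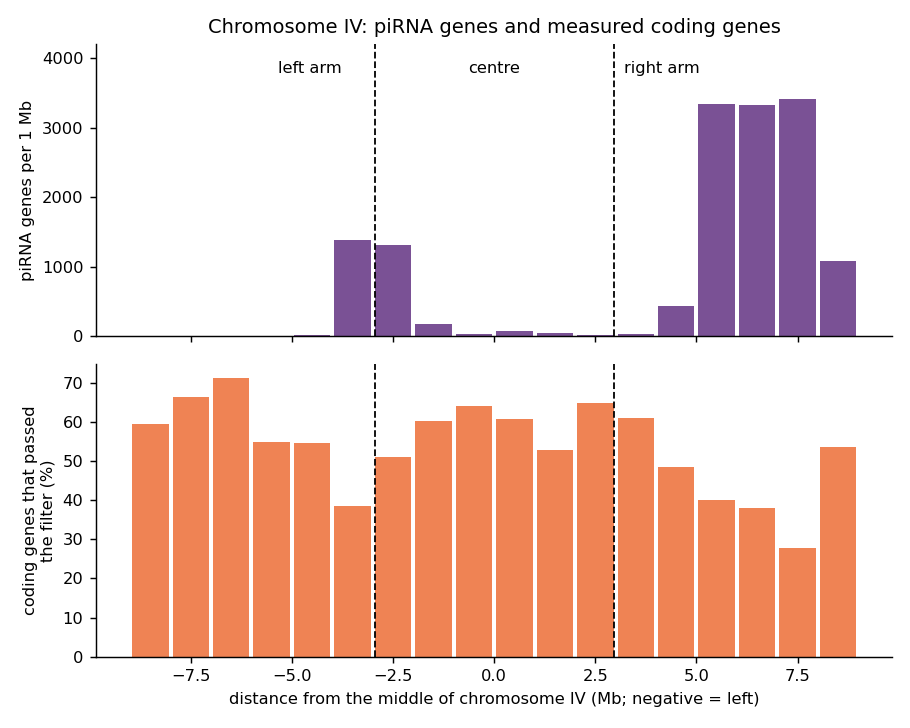
Number of piRNA genes (top) and share of protein-coding genes that passed the filter in percent (bottom) in bins of 1 Mb along chromosome IV, by distance from its middle in Mb; dashed lines mark the arm boundaries. The bin with 3417 piRNA genes has the lowest share of measured coding genes, 27.7%.

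Fewer of the coding genes were measured on the arms, and those that passed the filter had similar levels per kb on the arms and in the centre. In N2, 44.2% and 45.1% of the 1936 arm coding genes had at least 10 normalised counts, against 51.4% and 50.3% of the 1344 in the centre. Over the coding genes that passed, the N2 median was 40.3 normalised counts per kb of exon on the arms, 42.2 on the left and 36.0 on the right, against 36.3 in the centre. The quartiles ran from 15.2 to 94.0 on the arms and from 14.4 to 81.6 in the centre, so the ranges overlapped almost entirely. Arm genes were longer, with a median of 2843 bases against 2267 in the centre, but their exons added up to 1422 against 1427 bases in 6 blocks each. Arm coding genes took 6.33% to 6.79% of the normalised counts in the 9 mutant libraries other than replicate 2 of the triple mutant met-2 set-25 set-32, 7.17% in that library, and 6.35% and 6.63% in N2. The centre, with fewer coding genes, took 7.33% and 7.44% in N2. Over all coding genes the N2 mean per gene, not scaled by length, was 81.4 and 80.9 normalised counts on the arms and 135 and 131 in the centre. Replicates differed about as much on the arms as in the centre: the median SD of log2 values was 0.168 on the arms and 0.170 in the centre for hpl-2, 0.690 and 0.719 for met-2 set-25 set-32, and 0.306 and 0.317 for N2.

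Few arm genes passed the limma test at a Benjamini-Hochberg adjusted p under 0.05 when all 12 libraries were fitted together. In hpl-2, 8 of 1500 arm genes (0.533%) were called against N2, 2 higher and 6 lower, against 10 of 1101 centre genes (0.908%), 7 higher and 3 lower, and 0.608% of all genes tested. In hpl-2 I158A, 46 arm genes (3.07%) were called, 7 higher and 39 lower, against 67 centre genes (6.09%), 15 higher and 52 lower, and 4.0% of all genes. In lin-61 no arm gene was called, while 137 had an unadjusted p under 0.05, 0 were called by edgeR's quasi-likelihood test and 5 by DESeq2; the centre had 2 calls, and the share over all genes was 0.0956%. In lin-61 hpl-2, 3 arm genes (0.2%) rose and none fell, the centre had 0 calls with 72 at an unadjusted p under 0.05, 0 by edgeR and 1 by DESeq2, and 0.273% of all genes were called. In met-2 set-25 set-32, 2 arm genes (0.133%) rose and none fell, against 3 centre genes (0.272%) and 0.328% of all genes. Apart from lin-61 hpl-2, where 3 arm genes stood against 0 centre genes, the share called in this fit was lower on the arms than in the centre. It was also lower there than over all genes. The order of arms and centre did not hold in every setting. In the authors' deposited table it was 3.88% on the arms against 3.47% in the centre in hpl-2. For met-2 set-25 set-32 that table had 1.95% against 1.01%. The difference between arms and centre was not tested. Split by direction, 0.28% of all genes were higher and 0.328% lower in hpl-2, while hpl-2 I158A had 0.908% and 3.09%, lin-61 had 0.0751% and 0.0205%, lin-61 hpl-2 had 0.246% and 0.0273%, and the triple mutant met-2 set-25 set-32 had 0.123% and 0.205%.

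These counts depended on the libraries in the fit, since all genotypes share 1 estimate of the spread. Without replicate 2 of the triple mutant met-2 set-25 set-32 the arm calls were 199 in hpl-2 (59 higher, 140 lower), 327 in hpl-2 I158A (102 higher, 225 lower), 70 in lin-61 (30 higher, 40 lower), 75 in lin-61 hpl-2 (47 higher, 28 lower) and 42 in the triple mutant met-2 set-25 set-32 (22 higher, 20 lower). These were 13.3%, 21.8%, 4.67%, 5.0% and 2.8% of the arm genes, against 13.7%, 25.8%, 6.9%, 4.18% and 2.72% of the centre genes and 14.4%, 22%, 6.19%, 5.01% and 3.46% of all genes, in the same order. Over all genes the shares higher and lower were 5.68% and 8.7%, 9.17% and 12.9%, 3.1% and 3.09%, 2.86% and 2.15%, and 1.75% and 1.71%, again in that order. All 8, 46, 3 and 2 calls of the fit with 12 libraries were among them. Without replicate 1 of the same genotype the first 4 counts were 198, 326, 70 and 78, and the count for met-2 set-25 set-32 was 525, with a single library left whose spread is assumed to be that of the others; over all genes the shares were then 14.6%, 22.1%, 6.28%, 5.26% and 35.6%. With only the 4 libraries of each comparison in the fit, the arm calls were 39, 151, 10, 9 and 0 in the same order, against 3.18%, 11.2%, 1.13%, 0.635% and 0.00683% of all genes. The count of 0 in met-2 set-25 set-32 stands beside 45 arm genes (3.0%) at an unadjusted p under 0.05 in that same fit of 4 libraries. With 12 libraries there were 206 such genes and edgeR called 2 and DESeq2 21. Over all genes edgeR called 0.26%, 2.47%, 0.0751%, 0.164% and 0.307% and DESeq2 1.94%, 6.1%, 0.601%, 0.649% and 1.54%, in the same order. Leaving out any other library raised none of these counts: hpl-2 then had 0 to 3 arm calls, hpl-2 I158A 0 to 22, lin-61 0, lin-61 hpl-2 0 to 2 and met-2 set-25 set-32 1 or 2.

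**Figure D2:**
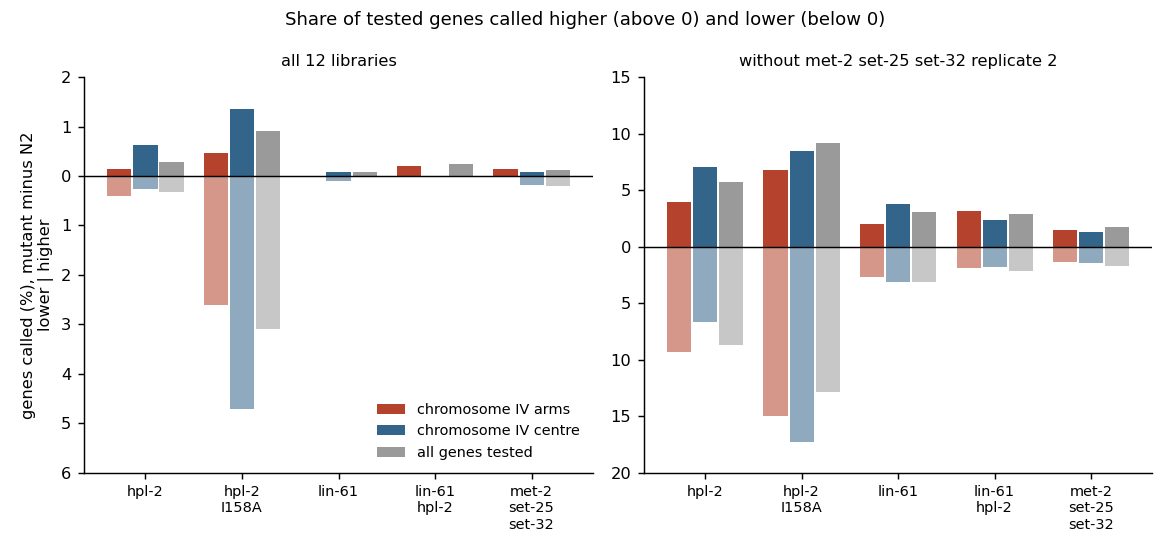
Percent of tested genes called higher (above 0) and lower (below 0, paler) in each mutant against N2, on the chromosome IV arms, in its centre and over all genes, with 12 libraries (left) and without replicate 2 of the triple mutant met-2 set-25 set-32 (right; the vertical scales differ). In hpl-2 I158A the arms reached 3.07% with 12 libraries and 21.8% with 11, below the centre at 6.09% and 25.8%.

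The arm genes as a whole shifted little. The median log2 fold change was -0.03 on the arms, 0.16 in the centre and 0.03 over all genes in hpl-2, and -0.05, -0.08 and 0.03 in hpl-2 I158A. It was -0.03, 0.05 and 0.02 in lin-61 single mutants, and 0.01, 0.05 and 0.01 in lin-61 hpl-2 double mutants. For the triple mutant met-2 set-25 set-32 it was -0.11, 0.03 and -0.02, but 0.08 on the arms without replicate 2, so the sign on the arms rested on that library. In hpl-2 the median of the arms lay below that of the centre by 0.19 on the log2 scale, and by 0.17 to 0.22 with each single library left out; over coding genes alone the medians were -0.08 on the arms, -0.13 on the left arm by itself, and 0.09 in the centre. In hpl-2 I158A the arm median pooled unlike parts: it was 0.057 on the left arm and -0.202 on the right arm. By class, the arm median there was 0.098 over coding genes and -1.04 over piRNA genes, against 0.025 and -0.635 in the centre. The quartiles of the log2 fold change overlapped between arms and centre in every comparison. Scaling with edgeR's TMM factors in place of the deposited ones moved the median of all genes by 0.11 on the log2 scale in the triple mutant met-2 set-25 set-32 and by at most 0.05 in the others; with TMM the arm split in hpl-2 was 2 higher and 1 lower.

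**Figure D3:**
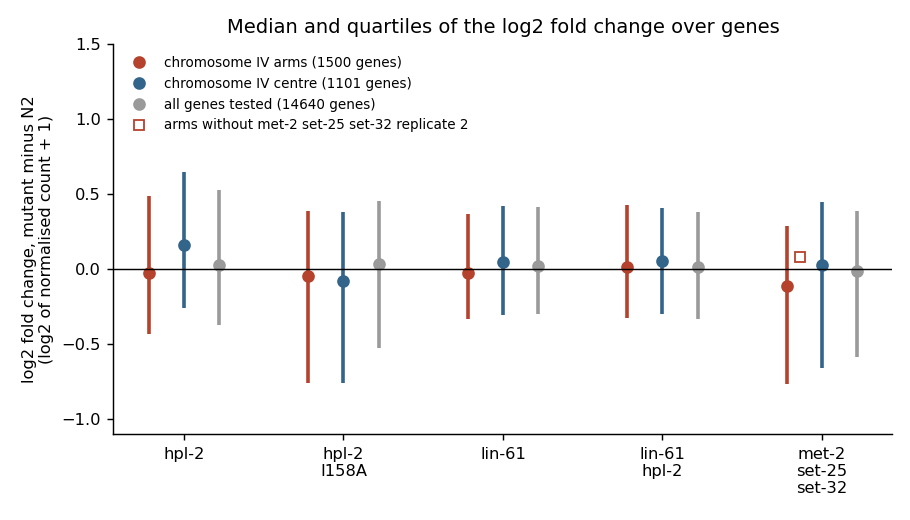
Median (points) and quartiles (lines) of the log2 fold change of each mutant against N2 over arm, centre and all tested genes, on the scale of log2(normalised count + 1). The open square is the arm median in met-2 set-25 set-32 without replicate 2, 0.08 in place of -0.11.

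In hpl-2 embryos the 2 arm genes that rose were Y38H8A.7 and C55C3.3, and the 6 that fell were rbm-39, set-26, pcn-1, pbs-1, hrpu-1 and F53H1.4. Y38H8A.7 (IV, 13455500 to 13456346), a coding gene of the right arm, had 208 and 260 normalised counts in hpl-2, against 20.2 and 12.2 in N2. Its log2 fold change was 3.8 ± 0.434 (SE; limma adjusted p = 0.0047), the groups did not overlap, and the call was kept by 7 of 7 other fits and by 10 of 12 fits that left out a library. Among the genes that fell, rbm-39 (IV, 1012624 to 1019558), the gene of an RNA-binding protein tied to splicing, had 272 and 289 in hpl-2, against 893 and 719 in N2 (log2 fold change -1.51 ± 0.182, limma adjusted p = 0.00727). It too was called by 7 of 7 other fits and by 9 of 12 with a library left out. Since the samples are whole embryos, fewer cells of a type and less RNA per cell cannot be told apart.

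The other genes that fell in hpl-2 had smaller changes and adjusted p-values close to the threshold. The gene of a SET- and PHD-domain protein, set-26 (IV, 16646791 to 16655883), averaged 1285 ± 143 normalised counts in hpl-2 and 2645 ± 467 in N2 (SD, n = 2 each; limma adjusted p = 0.0402). The gene of the replication clamp PCNA, pcn-1 (IV, 4047937 to 4049448), averaged 444 ± 77.7 in hpl-2 and 874 ± 12.7 in N2 (limma adjusted p = 0.0496). The proteasome subunit gene pbs-1 averaged 263 ± 12.7 in hpl-2 and 487 ± 3.84 in N2, and the hnRNP U homolog hrpu-1 averaged 754 ± 24.1 in hpl-2 and 1384 ± 107 in N2. For F53H1.4 the means were 581 ± 67.8 in hpl-2 and 1061 ± 61.4 in N2. No group overlapped with N2 in these 5 genes, which held for every called arm gene and so adds no separate support. Only 2 or 3 of 7 other fits and 2 of 12 with a library left out called them, the 2 being those without a met-2 set-25 set-32 library. In hpl-2 I158A, by contrast, set-26, pcn-1, pbs-1 and hrpu-1 had log2 fold changes of 0.16, 0.13, 0.41 and 0.13, none of them called. For lin-61 hpl-2 double mutants, whose hpl-2 counts were low too, changes were smaller than in hpl-2. They were -0.47 for set-26, -0.14 for pcn-1, 0.02 for pbs-1, -0.23 for hrpu-1, -0.03 for F53H1.4 and -0.28 for rbm-39. None was called there with 12 libraries. With lin-61 alone mutated, rbm-39 stood at -1.01 (limma adjusted p = 0.0992 with 12 libraries and 0.000763 with 11). Differences between mutants were not tested.

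In hpl-2 I158A embryos 39 of the 46 called arm genes were lower than in N2: 22 coding genes, 14 piRNA genes, 2 ncRNA genes and 1 pseudogene. The 7 that rose were all coding genes. The highest log2 fold changes among these were those of rme-2, the yolk receptor of the oocyte, nduv-3, named after a flavoprotein subunit of mitochondrial complex I, and mex-5, a zinc-finger protein of the polarised early embryo. The receptor gene rme-2 (IV, 5469961 to 5473174) had 195 and 192 normalised counts in hpl-2 I158A, against 34.3 and 87.7 in N2 (log2 fold change 1.79 ± 0.407, limma adjusted p = 0.0397). The 2 N2 libraries differed more than 2-fold there, yet both stayed below the mutant. For nduv-3 (IV, 2641310 to 2642113) the values were 204 and 183 in hpl-2 I158A and 74.8 and 58.5 in N2 (1.53 ± 0.322, limma adjusted p = 0.0303). At 188 and 173, hpl-2 embryos came close to this (1.43, limma adjusted p = 0.0875 with 12 libraries and 0.000618 with 11). Those of lin-61 single mutants held 144 and 128 (1.03, limma adjusted p = 0.332 and 0.00904). For rme-2 the highest values outside hpl-2 I158A were 132 and 152, those of the triple mutant (1.35, limma adjusted p = 0.21).

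The right-arm gene mex-5 (IV, 13353723 to 13356104) had 885 and 908 normalised counts in hpl-2 I158A, against 322 and 431 in N2. Its log2 fold change of 1.26 ± 0.214 (limma adjusted p = 0.0136) was called by 7 of 7 other fits and by 9 of 12 with a library left out. Values of 639 and 549 were reached by lin-61 single mutants (0.67, limma adjusted p = 0.335 with 12 libraries and 0.017 with 11). The genes sec-61.B, melo-1, cyc-2.1 and Y54G2A.26 rose by 1.07, 0.77, 0.75 and 0.73 on the log2 scale. For sec-61.B the values were 595 and 587 in hpl-2 I158A and 274 and 288 in N2, while 21ur-15588 on the other strand had 2997 and 2817 in hpl-2 I158A and was not called (log2 fold change 0.19, limma adjusted p = 0.904). For cyc-2.1, a cytochrome c gene that overlaps the ribosomal protein gene rpl-20 on its own strand over 8.4% of its length, they were 2116 and 2146 in hpl-2 I158A and 1249 and 1290 in N2. This gene reached 1793 and 1720 for hpl-2 (0.47), then 1885 and 1997 for lin-61 single mutants (0.61). Both rises were called with 11 libraries (limma adjusted p = 0.0171 and 0.00697) but not with 12 (0.224 and 0.264). The genes sec-61.B and melo-1 were called in neither of these mutants.

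The coding genes that fell in hpl-2 I158A spanned log2 fold changes of -2.49 to -0.81, and none of the 22 overlapped with N2. Among the most lowered were 2 genes whose homologs in other species work in ribosome assembly, rbd-1 and pwp-1. The first had 46.2 and 39.7 normalised counts in hpl-2 I158A, against 199 and 162 in N2 (log2 fold change -2.04, limma adjusted p = 0.00664), and the second 23.1 and 38.7 in hpl-2 I158A, against 128 and 124 in N2 (-2.04, limma adjusted p = 0.00783). Others were ddx-46, a DEAD-box helicase gene (-1.29), dpy-26, of a condensin subunit that acts in dosage compensation (-1.06), mig-32 (-1.49), gtf-2H1 of the general transcription factor TFIIH (-1.26), xpc-1 of nucleotide excision repair (-0.81), itsn-1 of endocytosis (-0.83) and the troponin I gene tni-4 (-1.27). The nuclear hormone receptor gene nhr-104 (IV, 4784233 to 4788692) had 10.6 and 8.15 in hpl-2 I158A, against 35.8 and 34.1 in N2 (-1.80 ± 0.388, limma adjusted p = 0.0336). F53H1.4 was the 1 gene called in both hpl-2 strains: it had 489 and 549 in hpl-2 I158A (-1.03 ± 0.163, limma adjusted p = 0.0105), and in hpl-2 the values given above. On chromosome IV it stands next to ddx-46 among the tested genes, and the pair fell together in hpl-2 I158A. The genes of these sentences that the naming rule does not pick, from rbd-1 to tni-4, and Y54G2A.26 were chosen after their values were seen.

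In lin-61 hpl-2 embryos the 3 arm genes that rose were C55C3.6, C55C3.3 and txt-4, all on the left arm. C55C3.6 (IV, 5683184 to 5684672) had 93.9 and 45.3 normalised counts in lin-61 hpl-2, against 3.12 and 0 in N2. These were 116 reads against 2, a ratio of 50.1 with a 95% interval of 13.6 to 419 that covers counting error only, and the fitted log2 fold change was 5.03 ± 0.765 (limma adjusted p = 0.0243). For txt-4 (IV, 1510546 to 1515251) the values were 42.0 and 29.4 in lin-61 hpl-2 and 1.56 and 1.22 in N2, or 60 reads against 2, a ratio of 25.9 with an interval of 6.87 to 219 (log2 fold change 3.92 ± 0.617, limma adjusted p = 0.0304). The call of txt-4 was lost in the fit without a filter and in edgeR, as was that of C55C3.6. In the single mutants txt-4 had 7.61 and 7.97 normalised counts in hpl-2 and 12.3 and 8.18 in lin-61, above both N2 values but not called with 12 libraries.

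In met-2 set-25 set-32 embryos the 2 arm genes that rose were C55C3.3 and the pseudogene WBGene00021886. The pseudogene (IV, 2902436 to 2914816) had 139 and 182 normalised counts in met-2 set-25 set-32, against 56.1 and 45.1 in N2 (log2 fold change 1.64 ± 0.281, limma adjusted p = 0.0427). It was lower than N2 in hpl-2 I158A, at 24.1 and 19.4 (-1.18 ± 0.281, limma adjusted p = 0.0447). The second call was kept by 1 of 7 other fits and the first by 4 of 7.

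C55C3.3 (IV, 5685287 to 5688273), a coding gene of the left arm with no gene opposite, was the only arm gene called in the same direction in at least 3 comparisons of the fit with 12 libraries. It had 159 and 141 normalised counts in lin-61 hpl-2, 157.98 and 118 in the triple mutant met-2 set-25 set-32, 72.3 and 62.9 in hpl-2, 44.9 and 40.9 in lin-61 and 11.6 and 4.08 in hpl-2 I158A, against 7.79 and 2.44 in N2. The hpl-2 I158A libraries overlapped with N2, and those of the other 4 mutants lay above every N2 and hpl-2 I158A value. The log2 fold changes were 4.78 ± 0.507 in lin-61 hpl-2 (limma adjusted p = 0.00277), 4.64 ± 0.507 in the triple mutant met-2 set-25 set-32 (adjusted p by limma = 0.00237) and 3.64 ± 0.507 in hpl-2 (limma adjusted p = 0.015). In lin-61 the log2 fold change was 3.0 and missed the threshold (limma adjusted p = 0.0817 with 12 libraries and 0.00152 without replicate 2 of the triple mutant met-2 set-25 set-32), and in hpl-2 I158A it was 0.54 (limma adjusted p = 0.607). The call in met-2 set-25 set-32 was kept in 12 of 12 fits with a library left out and lost with only the 4 libraries of that comparison; that in lin-61 hpl-2 was kept in 10 of 12, and that in hpl-2 in 5 of 12.

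The neighbour C55C3.6 was also highest in lin-61 hpl-2, at lower levels. It had 9.52 and 23.03 normalised counts in hpl-2, none in either hpl-2 I158A library, 9.19 and 7.27 in lin-61 single mutants, and 18.01 and 8.90 in the triple mutant met-2 set-25 set-32, none of them called with 12 libraries. On the side of lower coordinates, C55C3.4 and C55C3.7 stayed at or below 3.71 normalised counts in all 12 libraries, and C55C3.8 on the other side at or below 6.66, so these 3 did not pass the filter. The next tested gene, perm-5, had 31.2 to 94.3 in all libraries and was not called. This locus lies inside the left boundary by less than 0.5 Mb: with the boundaries moved outwards by 0.5 Mb it leaves the arm, and the arm calls in lin-61 hpl-2 were then 1 and those in met-2 set-25 set-32 were 1. No run of 3 or more neighbouring tested arm genes was called in 1 direction in any comparison; the 4 runs of 2 were C55C3.6 with C55C3.3 in lin-61 hpl-2, and ddx-46 with F53H1.4 and 2 pairs of piRNA genes in hpl-2 I158A.

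**Figure D4:**
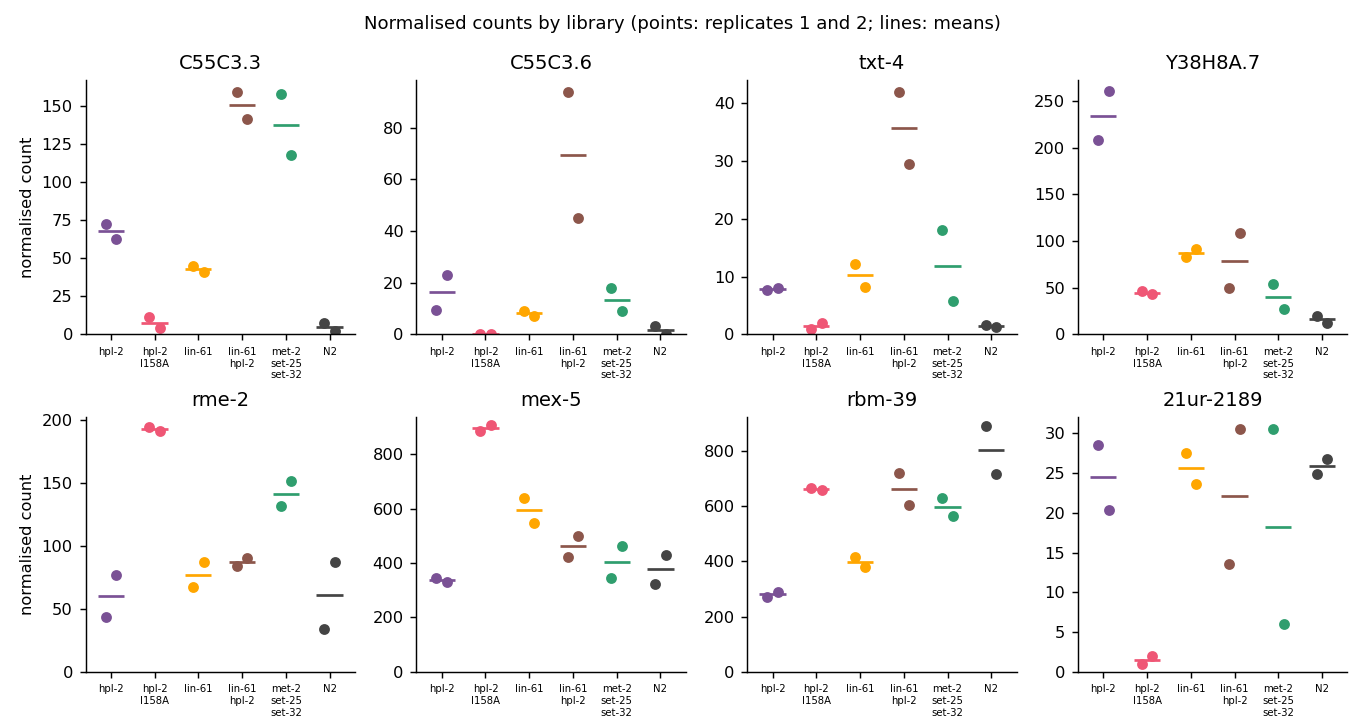
Normalised counts (vertical axes, from 0) of 8 arm genes in each library, mutants first and N2 last; points are replicates 1 and 2 and lines their mean. C55C3.3 reached 159 in lin-61 hpl-2 and at most 7.79 in N2, while 21ur-2189 was at 0.963 and 2.04 in hpl-2 I158A against 24.9 and 26.8 in N2.

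Y38H8A.7 was above both N2 libraries in each library of the 5 mutants. It had 46.2 and 42.8 normalised counts in hpl-2 I158A, then 82.7 and 91.8 in lin-61 single mutants, 49.4 and 109 in lin-61 hpl-2 double mutants, and 54.04 and 27.1 in the triple mutant met-2 set-25 set-32, beside the values for hpl-2 and N2 given above. With 12 libraries it was called in hpl-2 alone (limma adjusted p = 0.0942, 0.0992, 0.0896 and 0.252 in the other 4), and without replicate 2 of the triple mutant met-2 set-25 set-32 it was called in all 5 (limma adjusted p = 0.00622, 0.000836, 0.00231 and 0.0346 in the same 4). Y38H8A.12, which lies 2 tested genes further along, had 19.03 and 12.4 in hpl-2, 12.3 and 12.7 in lin-61 and 1.56 and 1.22 in N2, and was not called with 12 libraries. In the fit of 11 libraries 11 arm genes were called in the same direction in at least 4 comparisons, 9 of them higher or lower than N2 in 4 and 2 in all 5. The same count over the centre and over all genes is not given here, so this count does not compare the arms with a background. Besides Y38H8A.7, the gene called in all 5 was Y37E11B.1, with 79.0 to 122 in 9 mutant libraries, 23.1 in replicate 2 of the triple mutant met-2 set-25 set-32 and 38.9 and 37.8 in N2; it overlaps Y37E11B.2 on its own strand and Y37E11B.16 on the other. The dynein light intermediate chain gene dli-1 rose in 4 and the ESCRT-I gene tsg-101 fell in 4. For tsg-101 the values in the mutants were 101 to 172, against 226 and 172 in N2, so the highest mutant library, replicate 2 of the triple mutant met-2 set-25 set-32, overlapped with N2. Because all 5 comparisons use the same N2 libraries, a low or high N2 value moves all of them together. Y38H8A.12 and the genes of the fit with 11 libraries were chosen after their values were seen.

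Among the arm piRNA genes, 14 were called lower and none higher in hpl-2 I158A, and none was called in the other comparisons of the fit with 12 libraries. These 14 were 4.91% of the 285 tested, against 3.09% lower over all genes and 4.16% over the piRNA genes of the whole genome, so the share lay near the background. The median log2 fold change of the 285 that passed was -1.04 in hpl-2 I158A, against -0.05 over all arm genes and -0.74 over the 505 piRNA genes tested across the genome. Of the 14, 12 lay opposite an intron of a gene on the other strand, 1 wholly opposite an exon and 1 between genes. Of the 285 tested, 142 lay opposite an intron, 53 wholly opposite an exon and 71 between genes. The 6 with the lowest log2 fold changes all lay opposite introns: 21ur-12336, 21ur-6759 and 21ur-7632 opposite eps-8, 21ur-12979 opposite jac-1, 21ur-2189 opposite lam-1 and 21ur-6765 opposite tag-273. The last of these host genes was itself called lower in hpl-2 I158A, with 306 and 392 normalised counts against 709 and 798 in N2. The hosts eps-8, jac-1 and lam-1 were not among the arm genes called in hpl-2 I158A with 12 libraries.

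The called piRNA genes rested on few reads in the mutant. For 21ur-12979 (IV, 16010937 to 16010957) the values were 1.93 and 0 in hpl-2 I158A and 26.5 and 14.6 in N2, or 2 reads against 29. For 21ur-2189 (IV, 5179876 to 5179896) they were 0.963 and 2.04 in hpl-2 I158A and 24.9 and 26.8 in N2, 3 reads against 38, so that N2 was 17.5 times higher with a 95% interval of 5.55 to 88.6 for counting error. For 21ur-12336 (IV, 14889544 to 14889564) they were 1.93 and 0 in hpl-2 I158A against 34.3 and 17.1 in N2 (2 reads against 36, N2 higher by 24.9 times, 6.40 to 213), and for 21ur-6759 (IV, 14890035 to 14890055) 0.963 and 2.04 in hpl-2 I158A against 24.9 and 36.6 in N2. The pair 21ur-7632 and 21ur-6765 had 0.963 and 6.11, and 1.93 and 4.08, in hpl-2 I158A, against 40.5 and 36.6, and 48.3 and 29.2, in N2. In hpl-2 the same 6 genes had 8.56 to 31.9 normalised counts and log2 fold changes of -0.74 to -0.10, none of them called. Their log2 fold changes ran from -2.29 to -0.02 in lin-61 and from -1.25 to 0.21 in lin-61 hpl-2. For the triple mutant met-2 set-25 set-32 they were -2.08 to -0.38. None of these was called with 12 libraries. The lowest was that of 21ur-7632 in lin-61, with 6.13 and 8.18 against 40.5 and 36.6 in N2 (limma adjusted p = 0.335 with 12 libraries and 0.0232 with 11). It was followed there by 21ur-12979 at -1.76 and 21ur-6765 at -1.58 (limma adjusted p = 0.143 and 0.0533 with 11).

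Reads in arm piRNA genes depended on what lay on the other strand. A read in any library was found in 63.4% of the 202 piRNA genes wholly opposite an exon, 52.1% of the 96 partly opposite one, 48.0% of the 2269 opposite an intron and 22.7% of the 8147 between genes. In introns of their own strand 18.1% of 2077 had a read, and of the 356 that overlap an exon on their own strand 3.65%. Summed over the genes opposite introns, the normalised counts reached 1800 and 1956 in hpl-2 I158A, 4679 and 4659 in hpl-2, 3249 and 3521 in lin-61 single mutants, 3354 and 3411 in lin-61 hpl-2 double mutants, 4718 and 912 in the triple mutant met-2 set-25 set-32, and 4540 and 3401 in N2. The hpl-2 I158A libraries were thus below all others but replicate 2 of the triple mutant met-2 set-25 set-32. The same held for arm piRNA genes between genes, whose sums were 927 and 1167 for hpl-2 I158A but 2207 and 1351 for N2. For the centre, sums opposite introns were 724 and 841 with hpl-2 I158A, where N2 had 1199 and 1148. Centre sums between genes were 268 and 256 with hpl-2 I158A, where N2 had 439 and 334. Summed over the genes wholly opposite exons, hpl-2 I158A had 7144 and 7023, against 9118 and 7940 in N2, and the other mutants outside that library 6849 to 10206. Sums of 2 against 2 libraries cannot reach an exact two-sided permutation p below 0.333, so they were not tested.

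In met-2 set-25 set-32 the sign for piRNA genes rested on 1 library. Their summed normalised counts on the arms were 23224 in replicate 1 and 4013 in replicate 2, against 20244 and 17085 in N2, and the median log2 fold change of the 285 genes was -0.81 with both libraries and 0.32 without replicate 2. Without replicate 2, 6 were called higher and 1 lower there, and 12 higher and 91 lower in hpl-2 I158A, 58 of the 91 opposite introns, where 142 of the 285 lay. In hpl-2 I158A that was 4.21% higher and 31.9% lower, against 5.15% and 28.7% of the piRNA genes of the whole genome and 9.17% and 12.9% of all genes. With only the 4 libraries of the comparison, 8 were called higher and 36 lower in hpl-2 I158A, 22 of the 36 opposite introns, beside 4.07% higher and 7.16% lower over all genes.

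**Figure D5:**
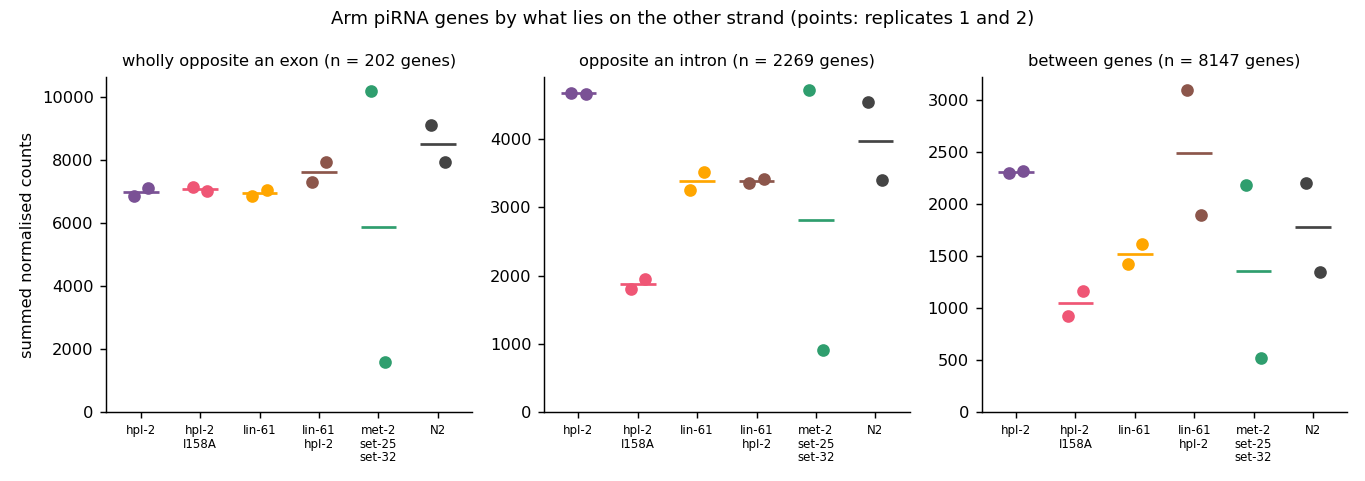
Summed normalised counts (vertical axes, from 0) of arm piRNA genes wholly opposite an exon, opposite an intron and between genes in each library, mutants first and N2 last; points are replicates and lines their means. In the middle panel hpl-2 I158A lies at 1800 and 1956, against 4540 and 3401 in N2, and replicate 2 of the triple mutant met-2 set-25 set-32 at 912.

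Gene families of the arms were mostly measured in small part and seldom called. Families were taken by the start of the symbol. Of the genes named like serpentine chemoreceptors, most of which act in sensory neurons, 11 of 122 on the arms passed the filter, and these 11 include srf-3, a nucleotide-sugar transporter gene that is no chemoreceptor. It was passed by 7 of 46 C-type lectin genes, 10 of 23 F-box genes and 14 of 22 collagen genes. Nuclear hormone receptor genes passed in 13 of 16 cases and major sperm protein genes in 0 of 9. With 12 libraries none of the chemoreceptor-named, lectin, F-box or collagen members was called in any comparison, and nhr-104 was the 1 called receptor. Their median log2 fold changes in hpl-2 I158A were 0.51, 0.28, -0.39, -0.25 and 0.13 for the chemoreceptor-named genes with srf-3 among them, lectins, F-box genes, collagens and hormone receptors, beside 0.03 over all genes. Of the 3 oocyte genes that passed, 2 rose in hpl-2 I158A, rme-2 and mex-5, beside 0.908% of all genes and 0 of the 3 oocyte genes of the centre. With 11 libraries all 3 on the arms and all 3 in the centre rose, beside 9.17% of all genes. With 12 libraries mbk-2, a kinase gene of the oocyte-to-embryo transition, had 1128 and 1093 in hpl-2 I158A and 659 and 858 in N2 and was not called (limma adjusted p = 0.236). No neuronal (8 tested), cuticle (8), meiosis (3), small RNA pathway (3) or H3K9 (2) gene of the arms was called with 12 libraries. The lowest adjusted p among the meiosis genes in hpl-2 I158A was that of msh-5, with 25.0 and 28.5 in hpl-2 I158A and 46.7 and 54.8 in N2 (limma adjusted p = 0.0959). Nearer to the threshold was the neuronal gene unc-31, with 11.6 and 9.17 in hpl-2 I158A and 24.9 and 54.8 in N2. Its log2 fold change was -1.75 (limma adjusted p = 0.0512 with 12 libraries and 0.00299 with 11). With 11 libraries 1 of the 8 neuronal arm genes and 3 of the 7 in the centre were lower there, beside 12.9% of all genes.

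Without replicate 2 of the triple mutant met-2 set-25 set-32 some members of these lists were called. The cytochrome P450 gene cyp-25A6 had 49.4 and 32.8 normalised counts in lin-61 hpl-2, 9.52 and 11.5 in hpl-2, and 1.56 and 0 in N2 (limma adjusted p = 0.00262 and 0.0193 with 11 libraries; 0.0518 and 0.143 with 12). The F-box gene fbxa-98 had 44.3 in the remaining met-2 set-25 set-32 library and 9.57 in replicate 2, against 1.56 and 2.44 in N2 (limma adjusted p = 0.036 with 11 libraries and 0.211 with 12). The meiosis genes msh-5 and rec-8 rose in lin-61 hpl-2 with 11 libraries (limma adjusted p = 0.031 and 0.0311), beside 2.86% of all genes. The third tested on the arms, htp-1, was not called (log2 fold change 0.25, limma adjusted p = 0.721 with 11). Of the 7 tested in the centre, 0 were called higher there. The values were 100.1 and 104.1 in lin-61 hpl-2 against 46.7 and 54.8 in N2 for msh-5. For rec-8 they were 164 and 156 in lin-61 hpl-2 against 96.6 and 69.5 in N2. In hpl-2 I158A msh-5 went the other way with 11 libraries (log2 fold change -0.9, limma adjusted p = 0.0168), where 12.9% of all genes were called lower. Lists, families and these examples were chosen with results of these data known.

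In the authors' deposited table, at an adjusted p under 0.05, the arm genes called were 42 of 1082 with a value (3.88%) in hpl-2, 95 of 1368 (6.94%) in hpl-2 I158A, 9 of 949 (0.948%) in lin-61, 7 of 1747 (0.401%) in lin-61 hpl-2 and 32 of 1640 (1.95%) in met-2 set-25 set-32. In the authors' deposited table the centre had 3.47%, 11.2%, 2.47%, 0.0% and 1.01%, and all genes 4.29%, 8.0%, 1.58%, 0.615% and 2.06%, in the same order. The split of arm genes in the authors' deposited table, turned round to mutant over N2, was 7 higher and 35 lower in hpl-2, 21 and 74 for hpl-2 I158A, 5 and 4 for lin-61, 7 and 0 for lin-61 hpl-2, and 8 and 24 for the triple mutant met-2 set-25 set-32. No arm gene went between no read in both libraries of one group and at least 10 normalised counts in both libraries of the other, in any comparison with N2. Such genes were rare everywhere. Over all genes 6, 1, 4, 11 and 5 had no read in N2, and 1, 3, 1, 1 and 6 none in the mutant, in the same order. In the centre these counts were 1, 0, 0, 0 and 1, and 0, 1, 0, 0 and 0.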

How the data were processed

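The authors deposited normalised read counts per gene for the 12 libraries, a signal that is never negative. Each value was a whole multiple of what 1 read is worth in its library: 100% of the values gave whole reads within 1e-06. The depth of each library was taken from those reads. The second deposited table gives, per the file headers, the authors' p-value, adjusted p-value and log2 fold change for each pair of genotypes; its log2 fold changes ran as N2 over mutant, from their values, and were turned round. The submitters' processing notes name STAR, featureCounts, DESeq2, WBcel235 and ce11; for the strand setting, options and versions the sources used here give nothing. Per the labels' protocols, messenger RNA was enriched by its poly(A) tail, and the kit marks strand with dUTP.

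The test was limma-trend (limma 3.58.1, R 4.3.3) on log2(normalised count + 1), a scale that understates changes of low genes, with 12 libraries in 1 fit, genotype as the only term (6 residual degrees of freedom) and Benjamini-Hochberg adjustment over 14640 genes with at least 10 in at least 2 libraries. A gene was called at an adjusted p under 0.05. The plan named edgeR for raw counts; since the table held scaled values, edgeR 4.0.16 and DESeq2 1.42.0 were run on the recovered reads as alternatives. The limma step was tested on simulated data. Symbols, classes and exons came from the Ensembl annotation of WBcel235 (46817 identifiers matched, 87 not). Named genes were the 6 highest and 6 lowest called in each comparison, those called in 3 or more, called list members, the highest per kb in each arm, and runs of 3 or more neighbours. The members and lists were chosen with earlier results of these data known. Intervals cover counting error only.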

Additional observations from a re-analysis of the deposited data

How the results depend on the processing

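No call reversed its direction under any alternative. Of the 59 arm calls, 49 were kept with a pseudocount of 5, 20 with no filter on low values, 42 with TMM scaling, 27 with edgeR, 53 with only the libraries of each comparison and 42 with a replicate block; DESeq2 gave an adjusted p for 55 and called all of them. The cause of each change below was not tested. Counts are given for the 5 mutants in the order of the report (hpl-2 first, then hpl-2 I158A, lin-61 alone, lin-61 with hpl-2, and the triple mutant met-2 set-25 set-32), arms first and centre second. The counts are out of 1500 arm and 1101 centre genes, except with no filter, with moved boundaries and over part of the genes. Moved boundaries and parts of the genes use the fit with 12 libraries, with its shares over all genes. With no filter, TMM or a replicate block the share over all genes is not given here, so those counts do not compare arms with a background. The counts were 4, 19, 1, 2 and 2 against 4, 32, 1, 0 and 1 with no filter, 3, 41, 1, 4 and 4 against 7, 56, 2, 0 and 4 with TMM, 3, 21, 0, 1 and 2 against 4, 40, 2, 0 and 2 with edgeR, and 25, 72, 5, 7 and 21 against 19, 91, 7, 1 and 10 with DESeq2. With only the libraries of each comparison they were 39, 151, 10, 9 and 0 against 34, 155, 19, 0 and 0. With the boundaries 0.5 Mb further out they were 7, 39, 0, 1 and 1 against 11, 74, 2, 2 and 4, and further in 9, 56, 1, 3 and 4 against 9, 57, 1, 0 and 1. Over coding genes they were 8, 29, 0, 3 and 1 of 997 against 9, 60, 1, 0 and 1 of 801. These were 0.802%, 2.91%, 0.0%, 0.301% and 0.1% against 1.12%, 7.49%, 0.125%, 0.0% and 0.125%. Over the coding genes of the whole genome the shares were 0.734%, 4.49%, 0.0873%, 0.279% and 0.245%. Over genes with none opposite the counts were 8, 32, 0, 3 and 2 against 8, 54, 1, 0 and 2. With each library left out in turn the arm counts spanned 0 to 199, 0 to 327, 0 to 70, 0 to 78 and 1 to 525, and the centre counts 1 to 153, 0 to 284, 0 to 78, 0 to 47 and 0 to 464.

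The arm median minus the centre median of the log2 fold change was -0.188, 0.030, -0.073, -0.042 and -0.138. It was -0.169 and -0.071 for hpl-2 and lin-61 with a pseudocount of 5, 0.000 for hpl-2 I158A, lin-61 and lin-61 hpl-2 with no filter, and -0.075 for lin-61 with TMM. For lin-61 and lin-61 hpl-2 it was -0.079 and -0.053 with edgeR and -0.079 and -0.055 with DESeq2, which gave -0.196 for hpl-2. With the boundaries further out it was -0.202 for hpl-2 and -0.089 for lin-61, and further in -0.170, -0.004, -0.080 and -0.070 for the first 4. Over coding genes it was -0.167, 0.073 and -0.051 for the first 3, and with none opposite -0.195 and -0.072 for hpl-2 and lin-61. With each library left out it spanned -0.219 to -0.165, -0.008 to 0.030, -0.088 to -0.069, -0.044 to -0.027 and -0.333 to -0.012.

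The deviations of same-numbered replicates had correlations of -0.077 to 0.156 over 15 pairs of genotypes. The labels do not say whether same-numbered libraries were prepared together, and with 2 libraries per genotype these correlations cannot exclude it. With a replicate block the arm counts were 3, 38, 1, 3 and 1 of 1500 genes, against 3, 53, 3, 0 and 3 of 1101 in the centre. Depth limits the low genes: a value of 10 normalised counts is about 10 reads in most libraries.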
